A study of Mus musculus with 186 samples.

Results

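Among 90 wells of a microfluidic chip that were labelled as luminal cells of the adult mouse mammary gland, 76 passed the study's depth limits, and 8 of these 76 held transcripts of fibroblast genes. The 8 wells were chosen by measured values. A well was included when at least 4 of 12 genes (Col1a1, Col1a2, Col3a1, Col6a2, Dcn, Dpt, Mfap5, Loxl1, Fap, Pdgfra, Gsn and Has1, called the rule genes here) reached 10 CPM, which is the gene's count scaled to the well's total, with mitochondrial and ribosomal protein genes removed first. They are called fibroblast-transcript wells. The 56 passing luminal wells with at most 1 rule gene at that level were the reference, and 12 wells with 2 or 3 such genes entered neither group.

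The series holds 186 wells, 96 labelled basal and 90 labelled luminal, from adult mice of strain FVB/NJ, and the design text gives 8 mice in all without naming the mouse of any well. Both groups compared here carry the label Luminal, with no treatment and no transgene. By the study's methods they were sorted as Lin-CD29loCD24+ cells. This gate takes cells with CD24 and low CD29, and discards cells with CD31 (endothelium), CD45 (leukocytes) or TER119 (red cell lineage) on their surface. Cells were captured on the Fluidigm C1, which isolates cells in separate chambers and makes full-length cDNA from each, and the chambers were inspected by microscope. Wells are not replicate animals, so the groups were compared without a statistical test, and the values describe these wells.

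Fibroblasts build the connective tissue around mammary ducts. They secrete collagens, fibronectin, elastic fibre proteins and small leucine-rich proteoglycans, and modify this matrix with crosslinking enzymes, proteases and protease inhibitors. Luminal cells line the duct lumen, carry keratins 8 and 18 and tight junctions, and comprise hormone-sensing mature cells and progenitors that can express milk protein genes.

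The fibroblast-transcript wells made up 10.5% of the passing luminal wells (8 of 76, exact binomial 95% interval 4.66 to 19.7%, which covers counting error only). The labels give a PCR plate for each well. Plate C held 7 of the 8 among 52 passing luminal wells (13.5%, interval 5.59 to 25.8%), and plate B held 1 among 24 (4.17%, interval 0.105 to 21.1%). The plates' intervals overlap, and which mice lay on which plate is not given in the sources used here. Applied to the sorted basal wells, the same rule found 2 of 72 passing wells (2.78%, interval 0.338 to 9.68%), both on plate A.

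Among the passing luminal wells, the number of rule genes left 1 value, 4, empty between the chosen wells and the others. Well 54 held all 12, wells 24, 33, 39 and 55 held 11 each, well 61 held 8, and wells 27 and 71, the members just inside the threshold, held 5 each. No passing luminal well held 4. By summed level of the rule genes, wells 27 and 71 (228.5 and 391.8 CPM) lay inside the range of the wells with 2 or 3 rule genes (45.25 to 2709 CPM). Well 59, just outside, held 3, with Dcn at 2468 CPM, Gsn at 163 CPM and Fap at 76.3 CPM. Of the reference wells, 21 held no rule gene and 35 held 1.

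Depth did not set the fibroblast-transcript wells apart. They had 792183 to 2700284 reads on the remaining genes, inside the reference range of 105600 to 3227000. They detected 3777 to 8254 genes (median 6376), against 2563 to 7729 (median 5552) in the reference. With each well thinned to 100000 reads the medians were 4199 (range 2206 to 6145) and 3680 (range 741 to 5692). Wells 27 and 71 gave the 6145 and 5881 genes at the top of that range, above all 56 reference wells, whereas well 54 gave 2206. Mitochondrial genes took 2.14 to 13.2% of reads, against 0.197 to 75.5% in the reference.

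The name of the wells was checked against 4 fibroblast markers, Dcn, Col1a2, Col3a1 and Gsn, which are also rule genes, so that this is a description of the choice. Decorin (Dcn), a proteoglycan that binds collagen fibrils, ran from 2.53 to 12100 CPM (median 3619). It was at 10 CPM in 7 of the 8 wells and missing at that level from well 27. The collagen chains Col1a2 (21.5 to 1823 CPM, median 186) and Col3a1 (36.1 to 7362 CPM, median 796) and the actin-severing protein gelsolin (Gsn, 17.7 to 4466 CPM, median 1071) were at 10 CPM in all 8. Of the reference wells, 11 held Dcn and 21 held Gsn at 10 CPM, at up to 18980 and 1615 CPM, 2 held Col1a2 (up to 32.3 CPM) and 1 held Pdgfra (116 CPM). Col1a1, Col3a1, Col6a2, Dpt, Mfap5, Loxl1, Fap and Has1 were at 10 CPM in 0 of the 56.

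**Figure D1:**
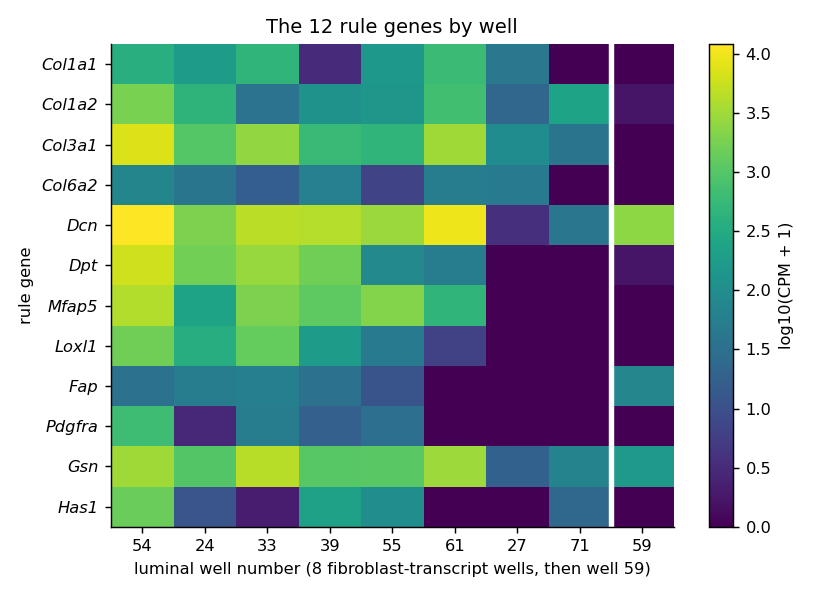
Level of the 12 rule genes (vertical axis) in the 8 fibroblast-transcript wells and in well 59 (horizontal axis, well number), coloured by log10 of CPM with 1 CPM added. Wells 54 to 55 on the left hold 11 or 12 of the genes at 10 CPM, wells 27 and 71 hold 5 each at lower levels, and well 59, which is not a member, holds Dcn, Gsn and Fap.

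The 8 wells were not alike, and 4 of them stood apart in ways that touch the results. Well 54 held few luminal keratin and junction transcripts. Only 2 of 35 luminal keratin and junction genes reached 10 CPM in it (Krt18 at 147.8 CPM and Krt19 at 80.9 CPM), against 20 to 27 in the other 7 wells and 10 to 32 in the reference wells. Epcam, the epithelial adhesion molecule, was at 0.562 CPM and Krt8 at 1.12 CPM in well 54, and the sort antigens' genes Cd24a and Itgb1 (CD29) were at 3.93 and 2.81 CPM. In the other 7 wells Epcam ran from 277 to 2272 CPM and Krt8 from 632 to 1588 CPM, so these wells held fibroblast and luminal transcripts together.

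Wells 27, 55 and 71 also held transcripts of endothelial genes. Of 20 endothelial markers, 14, 18 and 13 were at 10 CPM in them, with a summed level of 6241, 7051 and 2206 CPM. The other 5 fibroblast-transcript wells held 0 to 2 of the markers (summed level 1.48 to 608 CPM) and the reference wells 0 to 2 (0 to 386 CPM). Well 71 further held 15 of 20 pericyte and vascular muscle markers, against 0 to 4 in the other 7 wells and 0 to 2 in the reference. Well 25, which was in neither group, held 14 of them. For these 3 wells, and most of all for wells 27 and 71 with 5 rule genes each, the wells are better described by the rule than as fibroblast wells.

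**Figure D2:**
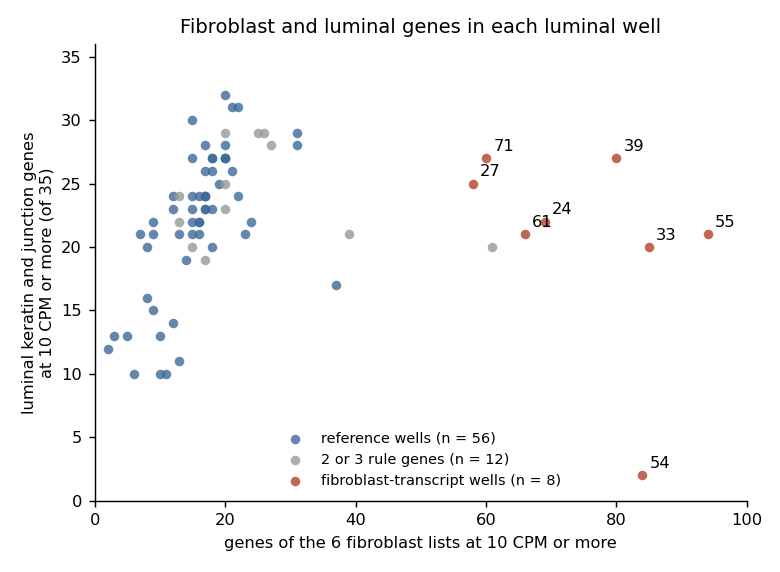
Each point is a passing luminal well, placed by how many genes of the 6 fibroblast lists described below (horizontal axis, 166 genes in all) and how many of 35 luminal keratin and junction genes (vertical axis) were at 10 CPM or more. The fibroblast-transcript wells hold 58 to 94 fibroblast genes and the reference wells 2 to 37. The 12 wells with 2 or 3 rule genes hold 13 to 61, and well 25 among them, at 61, lies above wells 27 (58) and 71 (60). On the vertical axis 7 of the 8 lie within the reference range and well 54 lies below it.

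Outside the rule genes, 13176 genes were compared. Counts were summed over the wells of a group, scaled to CPM, and set as a log2 ratio of fibroblast-transcript over reference wells with 1 CPM added to each. A gene was called higher or lower when this ratio passed 1 in size in the full sums and in every sum that left out any single well. By this rule 790 genes were higher (6.00% of those compared) and 3336 were lower (25.3%), and the median ratio of all genes was -0.49. Of the lower genes, 2138 were at 10 CPM in fewer than 14 of the 56 reference wells and 344 in 28 or more of them, so most lower calls concern genes that a minority of reference wells held. Of the higher genes, 369 were at 10 CPM in at least 4 of the 8 wells, and 77 of those in none of the reference wells.

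In 7 genes the lowest fibroblast-transcript well lay above the highest reference well (0.0531% of all genes compared). They were Fstl1, Fn1, Nid1, Serping1, Cd34, Vim and Rarres2. Wells with fewer fibroblast transcripts came close to the reference for some of them, as Fn1 shows below.

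The genes of matrix structure, which form the collagen, fibronectin and elastic fibre scaffold, were higher as a group. Of 36 listed genes 31 passed the filter on low values, and 25 were higher and 0 lower, with a median log2 ratio of 5.68 against -0.49 over all genes. Without the 3 wells with endothelial transcripts 26 were higher and 2 lower, where 468 of all 13176 genes were higher and 4697 lower (median -0.89). This background holds for each count below that leaves out those 3 wells. Fibronectin (Fn1, chromosome 1, 71585473 to 71653280, mm10), a fibre-forming glycoprotein that cells grip through integrins, was at 3686 CPM in well 54, 2128 in well 24, 5798 in well 33, 1560 in well 39, 1682 in well 55, 1001 in well 61, 5.05 in well 27 and 7.23 in well 71. No reference well exceeded 1.82 CPM. The groups therefore did not overlap, but wells 27 and 71 were near the reference while the other 6 wells were at 1001 CPM or more. The log2 ratio of the sums was 10.88, and it ran from 10.47 to 11.02 when any single well was left out.

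Nidogen-1 (Nid1, chromosome 13, 13437602 to 13512275), which links laminin and collagen IV in basement membranes, reached at least 25.7 CPM in every fibroblast-transcript well (median 983, highest 10660 in well 54) and at most 2.44 CPM in the reference. Its log2 ratio was 10.84 (9.60 to 11.05 without any single well), and well 54 alone gave 63.5% of the reads. Fibrillin-1 (Fbn1), the core of elastic microfibrils, had a median of 1231 CPM and was at 10 CPM in 7 of 8 wells and no reference well (log2 ratio 10.03). Fibulin-3 (Efemp1) was also at 10 CPM in 7 of 8 and no reference well, with a median of 266 CPM and 9427 CPM in well 54 (10.38, and 8.57 without well 54). The small proteoglycans were less even. Lumican (Lum) was at 669 to 4913 CPM in wells 33, 54, 55 and 61 and at most 1.26 CPM in the other 4 (10.02), and osteoglycin (Ogn) was at 789 to 5274 CPM in wells 24, 33, 39, 54 and 55 and listed at 0 in wells 27, 61 and 71 (6.88).

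**Figure D3:**
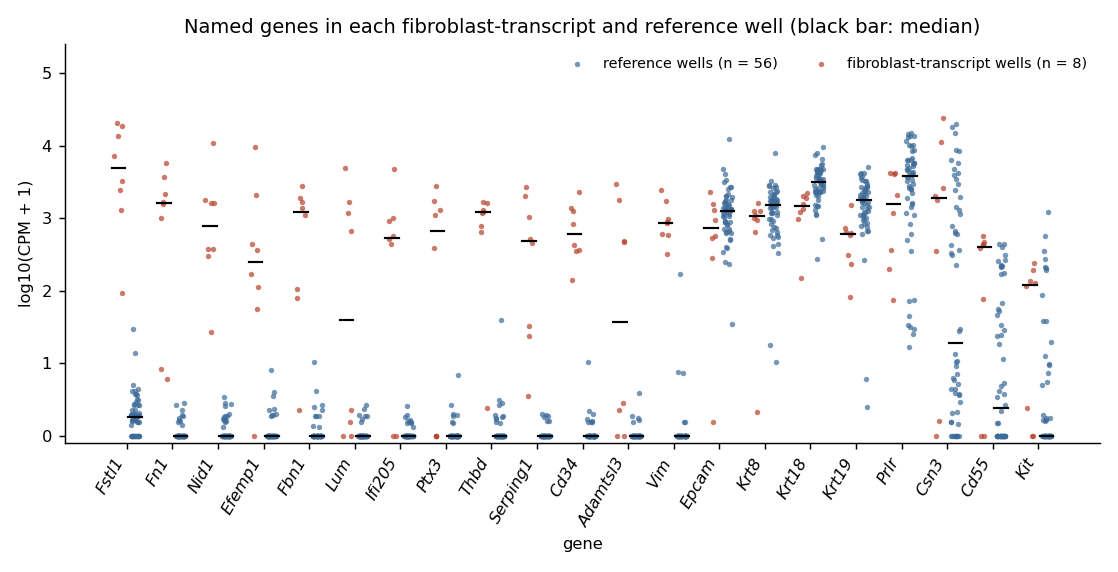
Level of named genes in each of the 8 fibroblast-transcript wells and 56 reference wells, as log10 of CPM with 1 CPM added (vertical axis), with a black bar at the median of each group. Fstl1, Fn1, Nid1, Serping1, Cd34 and Vim do not overlap between the groups, whereas Epcam, Krt8, Krt18, Krt19, Prlr, Csn3, Cd55 and Kit do.

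Of the matrix enzymes and inhibitors, 19 of 25 genes tested were higher and 2 lower (median log2 ratio 4.16). Without the 3 wells with endothelial transcripts 18 were higher and 4 lower, and without well 54 15 were higher. Timp3, a matrix-bound inhibitor of metalloproteases, was at 447 to 3809 CPM in 7 wells and at 0.476 CPM in well 61, with a reference median of 0.522 CPM (log2 ratio 7.86). Timp2 was at 278 to 2009 CPM in 7 wells and at 1.61 CPM in well 71, but 21 reference wells also held it, at up to 1168 CPM (3.29). The protease gene Adamts1 was highest in wells 55 and 71 (2773 and 1433 CPM), and Adamts5 in well 24 (1325 CPM), so that these proteases did not mark the same wells. Cathepsin K (Ctsk), a collagen-degrading protease, was at 10 CPM in only 3 of the 8 wells, 54, 39 and 55, at 793, 535 and 108 CPM (log2 ratio 6.18). The 2 lower genes were P4ha2, a subunit of the enzyme that hydroxylates collagen prolines, at -2.77, and Bmp1, which trims procollagen, at -4.25.

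Of the surface proteins and receptors, 17 of 23 were higher and none lower (median log2 ratio 5.08). Cd34, a sialomucin of stromal and vascular progenitors, was the gene of this list that was above 10 CPM in every fibroblast-transcript well and in no reference well. It was at 2282 CPM in well 54, 427 in well 24, 1241 in well 33, 356 in well 39, 1368 in well 55, 822 in well 61, 138 in well 27 and 350 in well 71, with a highest reference value of 9.47 CPM (log2 ratio 9.66, 9.25 to 9.84 without any single well). Endothelial cells also express Cd34, and its ratio was 9.78 without the 3 wells with endothelial transcripts. Ly6a (Sca-1), which also marks mature luminal cells, was at 324 to 17930 CPM, and 30 reference wells held it at 10 CPM (3.33, and 2.12 without well 54). Outside the list, thrombomodulin (Thbd), a surface cofactor of thrombin, was at 639 to 1667 CPM in 7 wells and at 1.43 CPM in well 61 (9.72).

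Of the transcription factors, 8 of 15 were higher and 1, Meis1, lower (median log2 ratio 3.09). Without the wells with endothelial transcripts 6 were higher and 1 lower (median 1.91). Prrx1, a homeobox factor of mesenchyme, was at 10 CPM in 7 of 8 wells and in no reference well, at 16.3 to 894 CPM in those 7 (log2 ratio 7.94). Ebf1 was at 10 CPM in wells 24, 27, 39, 54 and 71, at 1860 CPM in well 54 (8.10, and 6.33 without well 54). Klf4 was higher by 1.56, with 42 of 56 reference wells holding it as well. Nfib did not pass the call rule (0.48), and was at 10 CPM in 8 of 8 and 52 of 56 wells. Foxp2 (6.05) failed the rule since 1 well, 24, held nearly all of its reads, and the ratio without it was 0.10.

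Secreted signals divided into broadly held and well-restricted genes. Of 29 tested, 18 were higher and 1, the Wnt antagonist Sfrp1, lower (median log2 ratio 3.58), and 11 were higher and 3 lower without the wells with endothelial transcripts. Igfbp5, an IGF-binding protein, was at 637 to 29390 CPM in the 8 wells, and 41 reference wells held it too, at up to 13360 CPM (3.24). Igfbp6 was at 99.1 to 3221 CPM in 6 wells and at most 1.26 CPM in wells 27 and 71 (9.14). The chemokine Ccl2 was at 10440 CPM in well 54 and at 85.6 to 362 CPM in wells 24, 39 and 55 (9.30, and 5.47 without well 54). Interleukin-33 (Il33) did not pass the call rule (0.26).

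Of the complement and plasma-type proteins, 8 of 16 were higher and 1 lower (median log2 ratio 3.34), and 6 were higher without well 54. The C1 inhibitor Serping1, which restrains the first step of the complement cascade, was at 2648 CPM in well 54, 31.9 in well 24, 516 in well 33, 450 in well 39, 1034 in well 55, 2043 in well 61, 2.53 in well 27 and 22.5 in well 71, and at most 0.962 CPM in the reference (9.71). The value of well 27 lay just above the reference range. Complement C3 overlapped between the groups, at up to 3723 CPM in the fibroblast-transcript wells and 5491 CPM in the reference, and was called higher. Serpinf1 (PEDF) was at 237 to 804 CPM in 6 wells and listed at 0 in wells 27 and 71 (8.49). Rarres2, which encodes the chemoattractant chemerin, was named after its values were seen and was at 10.7 to 235 CPM in the 8 wells and at most 1.32 CPM in the reference. The lower gene was the glutathione peroxidase Gpx3, at -1.55.

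Cytoskeletal and cytosolic genes associated with mesenchyme changed less as a group, with 6 of 20 higher, 0 lower and a median log2 ratio of 1.18. Fstl1 (chromosome 16, 37777055 to 37836516), a secreted follistatin-like glycoprotein placed in this list, had the largest ratio of the named genes. It was at 20130 CPM in well 54, 3233 in well 24, 18320 in well 33, 13430 in well 39, 7202 in well 55, 2424 in well 61, 90.9 in well 27 and 1299 in well 71, against a reference median of 0.787 and maximum of 28.4 CPM (log2 ratio 12.09, 11.76 to 12.30 without any single well). Vimentin (Vim), the intermediate filament of mesenchymal cells, was at 322 to 2413 CPM (median 865) and at most 169 CPM in the reference, where a single well held 10 CPM (7.82). It was named after its values were seen. The annexins Anxa1 (0.93) and Anxa2 (-0.37) did not pass the call rule and were present in at least 50 of the 56 reference wells.

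**Figure D4:**
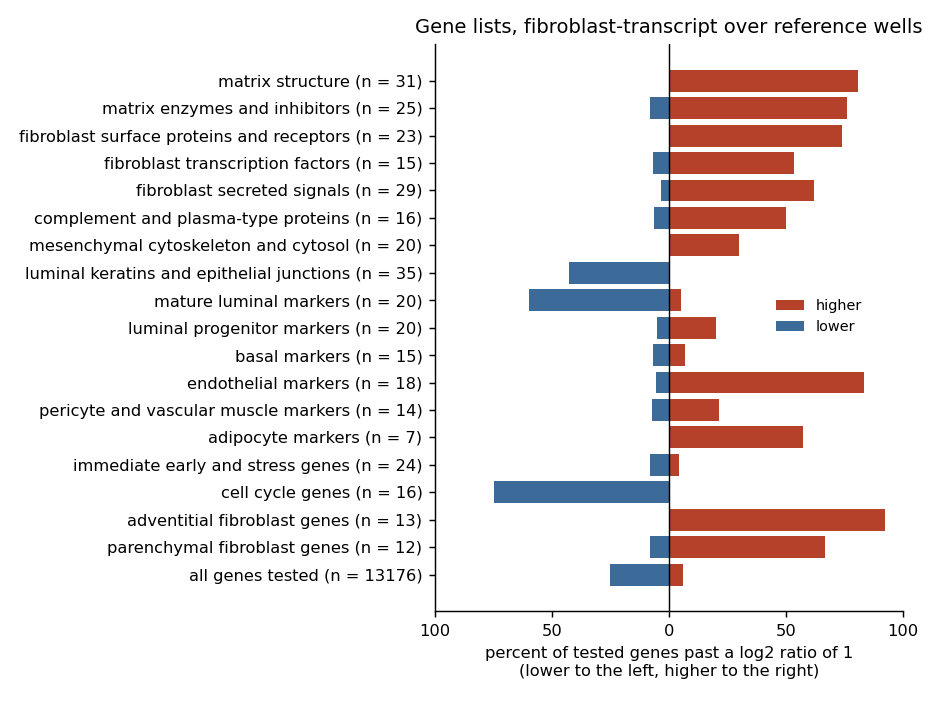
Share of the tested genes of each list (n in brackets) called higher (red, to the right) or lower (blue, to the left) in fibroblast-transcript wells. The 6 fibroblast lists from matrix structure to complement have 50.0 to 80.7% of their genes higher, against 6.00% of all genes tested. The mature luminal and cell cycle lists have 60.0 and 75.0% lower, against 25.3%. A gene could pass the filter through the fibroblast-transcript wells alone, so the shares higher are a description and not a test.

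Joined, these lists of matrix, surface, transcription factor, secreted and complement genes held 166 genes, of which 138 passed the filter and 94 were higher and 5 lower (median log2 ratio 4.67). Without the wells with endothelial transcripts 84 were higher and 11 lower, beside 468 and 4697 of all 13176 genes. When well 54 was left out, 86 were higher and 5 lower, beside 773 and 3211 of all genes. Since the wells were chosen for fibroblast genes and the lists with earlier results known, these counts describe how far the pattern extended. The summed level of the 166 genes was 145500 CPM in well 54 and 20490 to 64160 CPM in the other 7, against 672 to 29980 CPM (median 7867) in the reference.

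Fibroblasts of many organs fall into adventitial cells, which surround vessels and express Pi16 and Dpp4, and parenchymal cells, which express Col15a1, Penk and Hsd11b1. Of 13 adventitial genes tested 12 were higher and 0 lower (median log2 ratio 5.53), and of 12 parenchymal genes 8 were higher and 1 lower (5.60). The wells split between the lists. Wells 24, 33, 39, 54 and 55 held 11 or 12 of the 15 listed adventitial genes at 10 CPM, and wells 27, 61 and 71 held 3 or 4. Pi16, named after its values were seen, was at 221 to 1174 CPM in the first 5 wells and listed at 0 in the other 3. The surface peptidase Dpp4 was at 140 to 3476 CPM in the same 5 and at most 1.90 CPM in the other 3, and the guidance cue Sema3c at 234 to 2938 CPM and at most 0.952 CPM.

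Well 61 held 11 of the 15 parenchymal genes, against 2 to 7 in the other 7 wells. It alone held Hsd11b1, the enzyme that activates glucocorticoids, at 1329 CPM, and it had the highest Penk (proenkephalin) value, 570 CPM, with 45.2 CPM in well 39 and 10.9 CPM in well 33. Both genes had 0 reads in the reference wells. The flavin monooxygenase Fmo2 was at 571 CPM in well 61 but at 10 CPM in 34 of the 56 reference wells, and was called lower (-1.67). The parenchymal list shares Sparcl1, Col4a1 and Cxcl12 with vessels. Sparcl1 was at 728, 1737 and 984 CPM in wells 55, 27 and 71 and at most 5.24 CPM in the other 5, and without those 3 wells 5 parenchymal genes were higher, not 8.

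**Figure D5:**
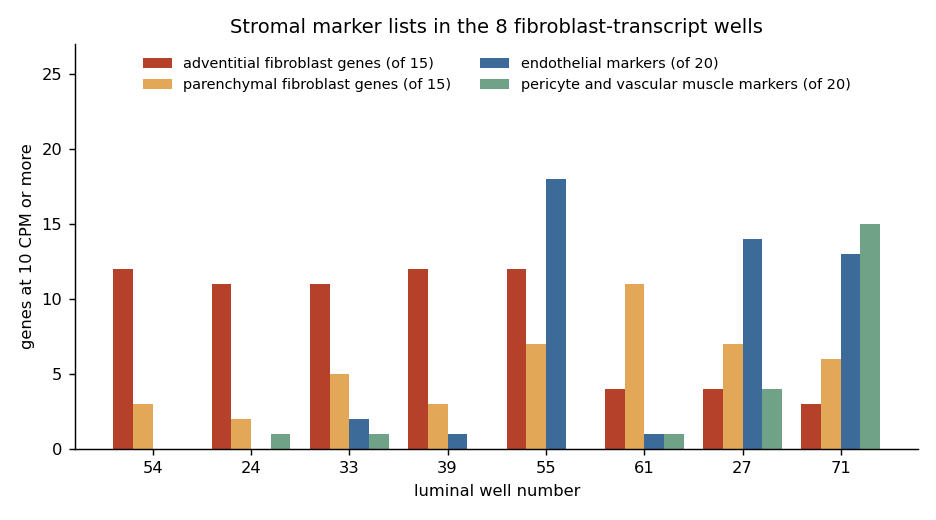
Number of genes at 10 CPM or more (vertical axis) from the adventitial, parenchymal, endothelial and pericyte lists in each fibroblast-transcript well (horizontal axis). Wells 54, 24, 33, 39 and 55 hold 11 or 12 adventitial genes, well 61 holds 11 parenchymal genes, wells 55, 27 and 71 hold 13 to 18 endothelial markers, and well 71 also holds 15 pericyte markers.

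Markers of endothelium came from few wells. Of 18 endothelial markers tested 15 were higher and 1 lower (median log2 ratio 5.07). Without wells 27, 55 and 71, 1 was higher and 1 lower (median -0.03). The receptor Cd93 was at 3803, 2119 and 538 CPM in wells 27, 55 and 71 and listed at 0 in the other 5. Pecam1, which encodes the CD31 antigen that the sort gate excluded, was at 352, 746 and 16.9 CPM in these wells and listed at 0 in the other 5. Fabp4 and Cd36, fatty acid handling genes of capillaries and adipocytes, followed the same wells, apart from Fabp4 at 46.8 CPM in well 39, with Cd36 at 5941, 2029 and 3095 CPM and at most 2.30 CPM elsewhere among the 8. The angiopoietin receptor Tek differed, at 384 and 322 CPM in wells 33 and 39 as well, and its ratio was 6.90 without the 3 wells and 6.97 with them. The part of endothelial transcripts in the fibroblast gene values of wells 27, 55 and 71 was not tested. Among the 12 wells with 2 or 3 rule genes, well 25 held 16 endothelial and 14 pericyte markers.

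Pericyte and vascular muscle markers were most numerous in well 71, and transcripts of the adipocyte list were highest in wells 27, 55 and 71. Of 14 pericyte and vascular muscle markers tested 3 were higher and 1 lower (median log2 ratio 1.21), and without those 3 wells 0 were higher and 3 lower (median -0.31). The summed level of that list was 1741 CPM in well 71 and 0 to 240 CPM in the other 7, within a reference range of 0 to 1416 CPM. Of 7 adipocyte markers 4 were higher and 0 lower (median 3.31), and without these wells 1 was higher and 2 lower (median -0.37). Without these wells the median of all 13176 genes was -0.89, with 468 higher and 4697 lower. The pericyte and adipocyte medians both lay above that value. The adipocyte list, which includes Fabp4 and Cd36, summed to 13300, 4578 and 6704 CPM in wells 27, 55 and 71, to 0 to 620 CPM in the other 5 and to at most 898 CPM in the reference. Well 25, which was in neither group, was above all 8 wells in both sums, at 3720 CPM for the pericyte list and 17210 CPM for the adipocyte list.

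The leukocyte gene Ptprc (CD45) and the basal keratin Krt5 had 0 reads in the 8 wells, the basal actin Acta2 was at most 0.973 CPM, and Krt14 was at 189 CPM in well 61 and at 0 in the other 7. Of 20 immune markers 3 passed the filter, and the 1 that was higher, Srgn, had its reads in wells 27, 55 and 71. The basal list had 1 gene higher (Mylk, at 10 CPM in the same 3 wells) and 1 lower (Oxtr) of 15. That is 6.67% each, against 6.00% of all genes higher and 25.3% lower. Well 71 held 6 of the basal list's 20 genes at 10 CPM, against 0 to 2 in the other 7 wells. Without these 3 wells no basal or immune marker was higher. Of 10 mesothelial markers only Krt19 and Rspo1 passed the filter, and 0 were higher and 1, Krt19, lower. Krt19 is also in the luminal keratin list and the study counts Rspo1 among its luminal genes, so these 2 do not describe mesothelium. Of 5 Schwann cell markers 0 were higher and 2 lower, where 25.3% of all genes were lower.

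Luminal keratin and junction genes remained widely held in 7 of the 8 wells, at lower summed levels. Of 35 luminal keratin and junction genes 0 were higher and 15 were lower (42.9%, against 25.3% of all genes). The list's median log2 ratio was -1.01 against -0.49 over all genes. The list's summed level was 244 CPM in well 54 and 5387 to 12330 CPM in the other 7, against a reference range of 2360 to 24900 CPM (median 16130). Krt18 had a median of 1456 CPM, against 3152 CPM in the reference, and its log2 ratio was -1.29 (-1.43 to -1.10 without any single well). Krt19 was lower by the same rule (-1.54) and Gata3, a master regulator of luminal fate, at -1.83. Krt8 (-0.61) and Epcam (-0.78) did not pass the call rule. The groups overlapped in each of these genes. Scaling bears on this count. Median-of-ratios factors brought the median of all genes from -0.49 to -0.14. With them 9 of the 35 were lower, beside 2676 of all 13176 genes. Without well 54, 11 of the 35 were lower, beside 3211 of all 13176. CPM is a share of the well's total. Added RNA of other genes, fewer luminal cells and less luminal RNA in a well cannot be told apart from these values.

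Of the mature luminal markers 12 of 20 were lower (60.0%, against 25.3% of all genes) and 1, Ly6a, higher (median log2 ratio -1.65). The lower genes included the hormone receptors Esr1 (-2.48) and Pgr (-2.10), the Wnt ligand Wnt4 (-3.29) that luminal cells make in response to progesterone, and the growth factor Ptn (-1.53). The prolactin receptor Prlr did not pass the rule (-1.19) and ran from 72.5 to 4157 CPM, against 15.7 to 14730 CPM in the reference. Of the luminal progenitor markers 4 of 20 were higher (Cd55, Wap, Itgb3 and Aldh1a3) and 1, Ltf, lower (median -0.12). These shares were 20.0% higher and 5.0% lower, against 6.00% and 25.3% of all genes, whose median was -0.49. The count higher was 2 without the wells with endothelial transcripts and 5 without well 54.

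The luminal content differed from well to well. Well 33 held Prlr at 4157 CPM, Cited1 at 1787 CPM and the casein Csn3 at 0.575 CPM. Well 39 held Csn3 at 11130 CPM, the progenitor receptor Kit at 189 CPM, Prlr at 195 CPM and Cited1 at 0.551 CPM. Fibroblast transcripts thus occurred beside both mature and progenitor profiles. Well 24 held both, with Csn3 at 24330 CPM and Prlr at 4081 CPM. Cd55, a complement regulator that the study used as a luminal progenitor marker and that is also an adventitial fibroblast gene, was at 419 to 562 CPM in wells 33, 39, 54 and 61, 386 CPM in well 24, 75.9 CPM in well 55 and listed at 0 in wells 27 and 71. In the reference 22 of 56 wells held it, at up to 437 CPM, and its log2 ratio was 2.25 (2.11 to 2.43 without any single well). Well 54, which held only 2 of the 35 luminal keratin and junction genes at 10 CPM, was at 469 CPM.

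The largest decreases among broadly held genes included Got1, an aspartate aminotransferase, which was at most 4.82 CPM in the fibroblast-transcript wells and at 10 CPM in 28 of 56 reference wells (log2 ratio -6.17). Epb41l4b, a membrane-cytoskeleton linker, behaved likewise, at most 7.23 CPM against 28 of 56 wells (-6.15). The secreted protease inhibitor Slpi was at 401 CPM in well 27 and at most 30.5 CPM in the other 7, with 33 of 56 reference wells at 10 CPM (-5.12). The reference values of all 3 genes began at 0, so the groups overlapped.

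In the summed counts 12 of 16 cell cycle genes were lower (75.0%, against 25.3% of all genes) and 0 higher. Their median log2 ratio was -2.23. These genes were concentrated in few wells of either group. Well 61 held 12 of the 16 at 10 CPM and well 27 held 8, whereas the other 6 held 0 to 4. The reference wells held 0 to 16, and the median was 2 in either group. The median summed level was 177 CPM in the fibroblast-transcript wells and 144 CPM in the reference, so the medians did not show the decrease of the sums. The proliferation antigen Mki67 was at 146 CPM in well 61, 68.2 CPM in well 27 and listed at 0 in the other 6 (-1.67). The topoisomerase Top2a did not pass the rule (-0.48), with 920 CPM in well 61. Of 24 immediate early and stress genes 1 was higher (Egr1, 1.37) and 2 lower (median -0.21). These shares, 4.17 and 8.33%, were below the 6.00 and 25.3% of all genes. Fos was at 619 to 6475 CPM in the 8 wells and 11.2 to 25080 CPM in the reference (-0.06).

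Across 9642 genes the pairwise Spearman correlations of the 8 wells ran from 0.259 to 0.414, as a description without a test. Wells 27 and 71 were the most alike pair, and well 54 had its lowest values with wells 27, 61 and 71 (0.259 to 0.270). The wells share the chip chemistry and the luminal sort.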

How the data were processed

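Each well of the Fluidigm C1 gave a file of raw counts per Entrez gene. The authors aligned read pairs to mm10 with Subread and deposited counts from featureCounts with its built-in RefSeq annotation. Strand and multi-mapping settings are not given in the sources used here, so overlapping genes and gene families may share reads. Samples were grouped by the labels. Symbols and coordinates came from RefSeq GRCm38.p6, and the 1904 of 27179 identifiers without a match held 1.94% of reads and were left out. The series-wide table was left aside.

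After 15 mitochondrial and 124 ribosomal protein genes were removed, luminal wells with at least 100000 reads and 1500 genes (basal, 50000 and 1000) were kept, and genes with 1 CPM in at least 3 luminal wells were compared. Counts were summed per group without a test. Intervals cover counting error only, since PCR reads carry no molecular identifiers. A count of 0 allows up to 3 reads, or 0.227 CPM in the 8 wells and 0.0367 CPM in the reference, and with genes at 0 set to that bound the medians were 4.70 for the joined fibroblast lists, 5.18 for endothelial, 5.72 for parenchymal and -0.50 for all genes. Doublets were not called by a program. No wells looked like a repeated library (chi-square per gene at least 37.8).

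The members and gene lists were chosen with earlier results of these data known. Named genes were the 12 rule genes, the 12 largest ratios in each direction at 50 CPM or more and held by 50% or more of the higher group's wells, up to 6 members of each list by CPM, and sort and study markers. Other genes were named after their values were seen. The ratio was tested on simulated counts. Alternatives changed the rule, reference, filters, scaling, depth, added CPM, plate and wells. Python 3.11.15, numpy 2.4.6, pandas 2.3.3, scipy 1.17.1 and, for TMM factors, edgeR 4.0.16 in R 4.3.3 were used.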

Additional observations from a re-analysis of the deposited data

Results flagged for a closer look

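Dixon's outlier test at the 95% level was applied over the 8 fibroblast-transcript wells to depth, genes detected, mitochondrial share and the number of genes at 10 CPM of each list, and chance alone marks about 1 in 20 groups. It marked well 54 for luminal keratin and junction genes (2), and well 71 for basal markers (6) and for pericyte and vascular muscle markers (15). Those lists of well 71 share Myh11, and the wells are not replicate animals, so the marks are a description. Outside the main comparison, 2 passing basal wells met the rule. Basal well 56 held 11 rule genes, with Dcn at 16470 CPM and Col3a1 at 6273 CPM beside Acta2 at 3273 CPM, and basal well 13 held 4. Of the 14 luminal wells below the depth limits, 4 had at least 4 rule genes at 10 CPM, a level that a single read reached in these shallow wells. They had 8 to 382 reads on rule genes in all.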

How the results depend on the processing

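No paired analysis was possible because shared numbers only name cells, and the groups were compared without a test. The lowest and highest counts when any single fibroblast-transcript well was left out were 671 and 814 genes higher, 3211 and 3754 lower, 25 and 27 matrix structure genes, 15 and 19 matrix enzymes, 14 and 18 secreted signals, 11 and 17 luminal keratin and junction genes, 11 and 15 mature luminal markers and 1 and 3 progenitor markers lower. On plate B alone the share of wells was 4.17%. Genes higher numbered 515 with rule genes counted at 50 CPM, 462 with 10 CPM added and 2361 with the fold asked of the sums alone. Genes lower numbered 1641 with 10 CPM added and 5082 in the sums alone. Matrix enzymes higher numbered 11 with 10 CPM added, and luminal keratin and junction genes lower 9 under median-of-ratios scaling. Progenitor markers lower numbered 3 on plate C and 2 with at least 6 rule genes, with rule genes at 1 CPM, with mean CPM, after thinning and in the sums alone. Median ratios of all genes were -0.22 under TMM and -0.14 under median-of-ratios scaling, and 25.3 and 27.7% of calls were then higher, against 19.1%. Of 200 values of these counts and this share under the alternatives, the other 182 stayed within 1.5 times or the counting interval. Leaving out wells 27, 55 and 71, an alternative chosen after seeing the data, gave 468 genes higher, 4697 lower and 11 secreted signals. The ratio changed sign for Mylk (-2.46), Cd36 (-2.02), Cd93 (-0.23), Ptprb (-0.21), Esam (-0.0520), Pecam1 (-1.25), Srgn (-0.0690) and Pparg (-0.37). Of these genes Mylk, Cd36 and Pecam1 lay below the median of all genes in that setting, -0.89, and the others above it. Mylk also changed sign with at least 6 rule genes (-0.0203), at 50 CPM (-2.41) and against all other luminal wells (-0.297), and Cd36 at 50 CPM (-0.65). The wells are not assigned to mice in the labels, so the spread between animals could not be computed.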
